A study of Mus musculus with 12 samples.

Results

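A set of 37 genes whose products fold, oxidise or dispose of proteins in the endoplasmic reticulum (ER) was followed in mouse B cells on their way to plasmablasts. The genes were chosen by symbol from what their products do, with earlier results of these data known. Their counts beside those of all genes are therefore a description. All 37 had a row in the deposited tables of 21761 genes. They comprise 10 HSP70 and HSP90 chaperones and cofactors, 3 genes of the lectin chaperone cycle, 11 disulfide isomerases and oxidases, 3 prolyl isomerases and 10 genes of ER-associated degradation (ERAD).

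RNA was measured in 12 libraries, 2 for each of 6 sorted groups, in a study of how gene expression changes as B cells divide. Per the design text, B220+ CD43- splenic B cells of naive C57/BL6J mice were labelled with CFSE or CTV, dyes that are diluted at each division, and put into uMT hosts, which lack B cells of their own. The hosts received LPS, a bacterial product that drives B cells to divide and to become plasmablasts, and the transferred cells were sorted 3 days later. The sample labels give female cells, an age of 8 weeks and the strain B6.SJL-Ptprca Pepcb/BoyJ, a strain name that differs from the one in the design text. Div0, Div1, Div3 and Div5 are cells that had divided 0, 1, 3 and 5 times. Div8neg and Div8pos are cells with at least 8 divisions, without and with CD138 on their surface, the protein product of Sdc1 that marks plasmablasts. All groups share the transfer, the dye and the LPS, so Div0 is the undivided fraction of challenged hosts. Each group came from the same hosts, numbered 196 and 197, so n = 2 per group, and wherever a pair of values is given host 196 stands first. The p-values rest on these 2 hosts.

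Proteins bound for the cell surface or for secretion enter the ER unfolded. HSP70 and HSP90 chaperones shield them, lectin chaperones hold those that carry a trimmed sugar, disulfide isomerases and oxidases make their disulfide bonds, prolyl isomerases turn the bonds before prolines, and ERAD sends failures to the cytosol for destruction. In plasma cells antibody chains are the main cargo of this machinery, and the unfolded protein response, through the ATF6 and IRE1-XBP1 arms, is known to raise many of its genes.

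Both arms are known to act through the ER stress response element (ERSE), a CCAAT box set 9 bases from a CCACG, or through the shorter ERSE-II. In the RefSeq promoter windows of build GRCm38.p6 (250 bases before and 50 after the start of transcription), 33 of the 37 genes had an entry. The ERSE, searched as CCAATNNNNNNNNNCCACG on both strands, was present in 10 of these 33 genes (30.3%) and in 26 of all 16524 genes with a window (0.157%). The ERSE-II, searched as ATTGGNCCACG on both strands, was present in 2 of the 33 and in 0.0545% of all genes. Each of these elements contains a CCACG, which alone occurs in 42.2% of all windows, and the ERSE contains a CCAAT, which alone occurs in 42.4%. The matched sites are shown because they let the spacers be compared; they are written along the strand of the motif, 5′ to 3′, with the fixed letters in capitals.
Calr (ERSE): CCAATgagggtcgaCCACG
Canx (ERSE): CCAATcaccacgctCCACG
Creld2 (ERSE): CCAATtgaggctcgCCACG
Derl3 (ERSE): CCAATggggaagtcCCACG
Dnajc3 (ERSE): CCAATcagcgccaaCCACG
Ero1lb (ERSE): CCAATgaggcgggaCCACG
Hsp90b1 (ERSE): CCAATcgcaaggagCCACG
Hsp90b1 (ERSE): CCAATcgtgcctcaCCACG
Hspa5 (ERSE): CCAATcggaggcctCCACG
Pdia6 (ERSE): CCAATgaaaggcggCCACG
Syvn1 (ERSE): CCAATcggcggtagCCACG
Dnajb11 (ERSE-II): ATTGGcCCACG
Herpud1 (ERSE-II): ATTGGgCCACG
Hsp90b1 held the ERSE at 2 places. The distances from the first base of these matches to the start ran from 44 bases in Syvn1 to 212 bases in Hsp90b1, and the match of Dnajb11 lay just after its start. The 250 bases upstream of 4 genes are shown in full, on the gene's own strand, because 3 of them reached high levels or folds in the results below and Herpud1 carries the ERSE-II. Capitals again mark the fixed letters, on either strand.
Hspa5: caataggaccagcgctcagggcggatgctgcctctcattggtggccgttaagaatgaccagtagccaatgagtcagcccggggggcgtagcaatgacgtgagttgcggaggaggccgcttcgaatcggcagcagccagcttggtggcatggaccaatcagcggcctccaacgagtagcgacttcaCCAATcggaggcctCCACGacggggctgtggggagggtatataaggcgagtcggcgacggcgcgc
Hsp90b1: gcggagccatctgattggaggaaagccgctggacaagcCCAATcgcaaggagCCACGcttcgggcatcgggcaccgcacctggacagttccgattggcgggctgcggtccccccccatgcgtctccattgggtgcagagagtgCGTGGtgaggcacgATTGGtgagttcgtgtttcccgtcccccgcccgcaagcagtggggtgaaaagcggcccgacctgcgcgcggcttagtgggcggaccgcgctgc
Derl3: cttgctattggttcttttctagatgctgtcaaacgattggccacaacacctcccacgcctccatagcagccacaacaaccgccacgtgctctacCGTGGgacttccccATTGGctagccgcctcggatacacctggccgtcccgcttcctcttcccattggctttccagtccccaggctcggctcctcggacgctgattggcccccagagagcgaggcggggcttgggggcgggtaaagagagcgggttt
Herpud1: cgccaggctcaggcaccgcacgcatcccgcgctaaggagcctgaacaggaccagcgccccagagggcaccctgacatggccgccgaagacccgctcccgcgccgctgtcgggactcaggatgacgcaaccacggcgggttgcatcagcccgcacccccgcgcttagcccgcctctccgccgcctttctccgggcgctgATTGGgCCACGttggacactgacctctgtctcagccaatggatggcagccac
These windows lie at chr2:34771840-34772089 (plus strand) for Hspa5, chr10:86705445-86705694 (minus strand) for Hsp90b1, chr10:75893148-75893397 (plus strand) for Derl3 and chr8:94386179-94386428 (plus strand) for Herpud1. A match is a run of letters and says nothing of whether a factor binds there. The response is known to raise many of these genes, so their share beside all genes is a description with no test. The core of another element of the same response, TGACGTGG, was found in Txndc5 and Txndc11 and in 0.865% of all windows.

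Gene counts per library ran between 11541406 and 14961666, and ERCC spike-ins, RNAs of known amount added to 40000 sorted cells before extraction, took 113723 to 683173 further counts. Total mRNA, scaled to these spike-ins, ran from 27360 to 173800 mRNAs per cell. In plain CPM (counts scaled to the library total, with no TMM factor), Sdc1 stood at 313 and 298 in Div8pos, against 3.6 and 6.01 in Div8neg, and Sdc1 encodes the protein the cells were sorted on. The 7 B cell markers summed to 942 to 961 CPM in Div8pos and to 6260 to 9710 CPM in the other groups, and the 6 measured plasma cell markers to 5900 to 6060 CPM in Div8pos and 429 to 1130 CPM elsewhere. The 8 measured myeloid markers summed to 124 to 161 CPM in Div8neg, mostly Itgam at 105 and 135 CPM, and to 9.22 to 10.4 CPM in Div8pos. The 7 T cell markers summed to 2.19 to 3.82 CPM in Div8pos and to 11.9 to 57.6 CPM elsewhere. Of these, Lck had 0.605 to 1.1 CPM in Div8pos and 9.61 to 54.9 CPM elsewhere, and the other 6, Cd3e, Cd3d and Cd3g among them, had 0 to 1.61 CPM over all libraries. The 4 stromal markers summed to 162 to 295 CPM outside Div8pos and to 15.3 to 18.2 CPM in Div8pos. Nearly all of this was Pecam1, at 161 to 295 CPM outside Div8pos and 18.1 and 15.2 CPM in Div8pos. Col1a1, Col1a2 and Pdgfrb had 0 to 0.897 CPM over all libraries. The 4 NK cell markers summed to 6.87 to 15.5 CPM outside Div8pos and to 1.59 to 3.56 CPM in Div8pos. The 3 measured erythroid markers summed to 17.8 to 63.1 CPM at Div0 and to 3.62 to 36.4 CPM from Div1 to Div8neg. In Div8pos they summed to 0.339 to 3.55 CPM. Of these, Hba-a2 stood at 48.1 and 13.3 CPM at Div0. Whether cells of these other types were present, and what part they had in the results, was not tested.

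Summed over the 37 genes, mRNA stood at 177.1 and 235.8 mRNAs per cell at Div0, 267.3 and 407.4 at Div1, 281.3 and 381.5 at Div3, 614 and 618.2 at Div5, 1109 and 1445 in Div8neg, and 5043 and 5048 in Div8pos. The groups Div5, Div8neg and Div8pos did not overlap with each other or with the earlier groups. Neither did they in total mRNA per cell. That total ran from 27360 to 59840 over Div0, Div1 and Div3. It was 74920 and 67880 at Div5, 96790 and 103500 in Div8neg, and 173800 and 151800 in Div8pos. Div8pos held 4.02 ± 0.75 times as many of these mRNAs per cell as Div8neg (SD over 2 hosts) and 24.9 ± 5 times as many as Div0. The share of all mRNA stayed near its starting value early, with means of 0.675% at Div0, 0.653% at Div1 and 0.68% at Div3, and then was 0.865% at Div5, 1.27% in Div8neg and 3.11% in Div8pos. With 2 against 2 libraries an exact permutation test cannot go below p = 0.333, so these sums carry no test. In sorted bulk samples, a change in the share of cells that express a gene and a change in the RNA of each cell cannot be told apart. Levels were concentrated: 6 of the 37 genes made up more than 50% of the sum in Div8pos, and the top 5, Hsp90b1, Calr, Hspa5, Pdia4 and Creld2, made up 47.9%.

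**Figure D1:**
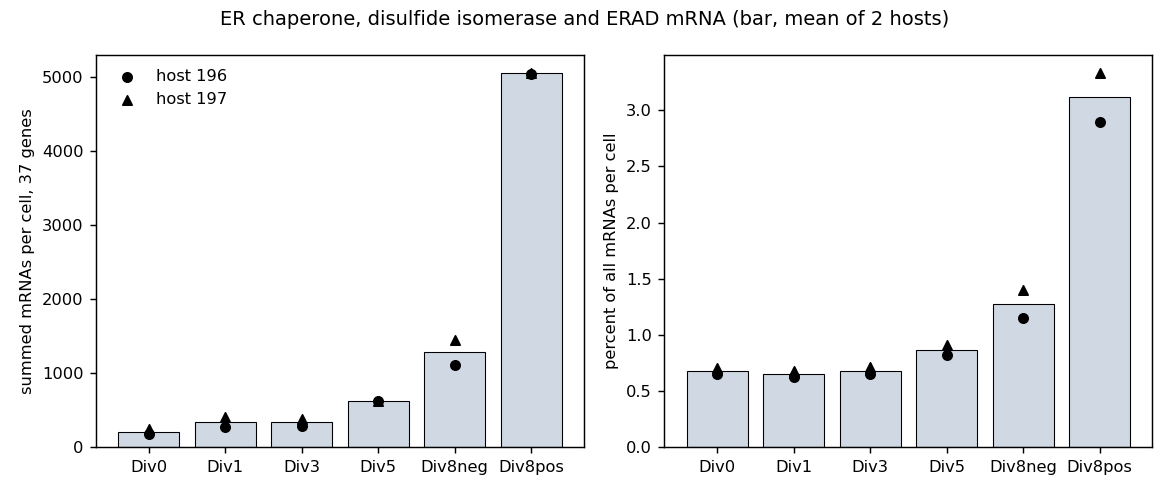
Summed mRNAs per cell of the 37 genes (left) and their percent of all mRNAs per cell (right) in each of the 6 groups. Bars are means of 2 hosts and points are the libraries; the sums at Div1 and Div3 lie close together above Div0, the percent differs little through Div3, and Div8pos stands at 5043 and 5048 mRNAs per cell.

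Changes of single genes were tested on 2 scales. The relative scale asks whether a gene changed against all other genes (edgeR quasi-likelihood test on counts, with an adjusted p under 0.05 over 12026 genes). The per-cell scale asks whether its number of mRNAs per cell changed (limma on log2 of mRNAs per cell plus 0.1, same threshold), and there the median of all genes moves too. Of the 37 genes, 36 passed the filter on low counts, with or without the Div8pos libraries, and Pdia5 did not. "Rose" and "fell" below are relative unless "per cell" is written, and log2 fold changes carry their SE. On the relative scale this SE was worked back from the test, as the absolute log2 change over the square root of its F statistic.

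No gene of the set passed on the relative scale in the first steps. At Div1 against Div0, 0 of the 36 rose, beside 5.44% of all genes tested, and at Div3 against Div1 again 0 rose, beside 1.9%. Without adjustment edgeR gave 2 genes of the set with p under 0.05 in each direction at Div1 against Div0. It gave 2 higher at Div3 against Div1. No share of all genes was worked out at that unadjusted threshold, here or per cell below, so these counts are not read as changes. DESeq2 called none of them in either step. With the host as a block edgeR called 2 higher and 3 lower in the first step and 1 higher, Derl3, in the next. That blocked fit called 770 of all genes lower in the first step and 385 higher in the next. Per cell, 34 of the 36 rose at Div1 against Div0, beside 77% of all genes, with a median log2 change of 0.68 for the 36 and 0.63 for all genes. That count rested on single libraries: it fell to 0 when the Div0 library of host 196 was left out and to 1 when the Div1 library of host 197 was. Per cell, 0 rose at Div3 against Div1, beside 0.208% of all genes, with 1 at an unadjusted p under 0.05 in limma, and edgeR scaled to the spike-ins also called 0.

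At Div5 more than 50% of the 36 genes of the set rose on the relative scale in the fit with all libraries. Relative to Div3, 20 of the 36 rose at Div5, beside 14.2% of all genes tested, with a median log2 change of 0.35. Relative to Div0, 21 rose at Div5, beside 24.6%. Per cell, 34 rose at Div5 against Div3 (42.7% of all genes) and all 36 rose at Div5 against Div0 (86.1% of all genes), with medians of 0.87 and 1.50 on the log2 scale, against 0.47 and 1.03 for all genes. The Div5 counts against Div3 rested on single libraries. The relative count was lower without Div3 of host 196 or Div5 of host 197. The per-cell count was lower without either of these or Div5 of host 196. In each of these fits the count over all genes was lower too.

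Div8neg cells went further without CD138. Against Div5, 30 of the 36 rose, beside 26.9% of all genes, and 1 fell, beside 26.6%. Against Div0, 32 rose, beside 35.3%, and 1 fell, beside 35.7%; the gene that fell was Ero1lb in both. The call on Ero1lb is given below with the libraries it rests on. Per cell, 33 rose against Div5 (42.3% of all genes) and 36 against Div0 (88.4% of all genes). Without Div8neg of host 197 the per-cell count against Div5 was lower, and so was the count over all genes.

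The step to CD138 took in every gene tested. In Div8pos all 36 rose against Div8neg, beside 36.6% of all genes, with a median log2 change of 1.48 against 0.01 for all genes. All 36 also rose in Div8pos against Div0, beside 40.2%, with a median of 2.31 against -0.04. Per cell the 36 rose against Div8neg (52.1% of all genes) and against Div0 (82.5% of all genes), with median log2 changes of 2.02 and 4.46, against 0.49 and 1.84 for all genes. Both comparisons use the same Div8pos libraries.

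The genes were sorted by the earliest of Div5, Div8neg and Div8pos in which they rose against Div0; Div3 was not tested against Div0. The Div5 class held 21 genes, which rose at Div5. The Div8neg class held 11 that rose against Div0 in Div8neg and not at Div5, namely Dnajb9, Txndc5, Txndc11, Ero1l, Fkbp2, Fkbp11, Ppib, Edem2, Edem3, Derl1 and Derl2. The Div8pos class held 4 that rose against Div0 in Div8pos alone and rose there against Div8neg too, namely Sil1, Pdia4, Ero1lb and Os9. Over all genes tested, 24.6% rose at Div5 against Div0. The sorting into classes was not run on all genes, so the Div8neg and Div8pos class sizes have no such share. Of the 17 ways of fitting and leaving out libraries, 24 of the 37 genes stayed in 1 class in all of them. The sizes of the Div5, Div8neg and Div8pos classes depended on single libraries: without Div0 of host 196 they were 14, 16 and 7, and without Div5 of host 197 they were 14, 18 and 5, with Pdia5 counted in the Div8pos class in both. The same 7 genes, Hspa5, Hyou1, Dnajc3, Manf, Creld2, Herpud1 and Syvn1, lost their Div5 call in both of those cases, and Herpud1 also lost it without Div0 of host 197 (edgeR adjusted p = 0.0575). DESeq2 gave 19, 13 and 4. With the host as a block they were 24, 9 and 3, where Txndc5, Fkbp11 and Edem2 rose at Div5 and Pdia4 in Div8neg. Per cell all 36 rose at Div5. Counted in mRNAs, most of the rise per cell came later. At Div5 the mean level had covered 0.896% (Fkbp11) to 24.9% (Ero1lb) of the distance between its Div0 and Div8pos levels in mRNAs per cell. The median over the 36 genes was 7.79% at Div5 and 21.4% in Div8neg. By class the median at Div5 was 7.6% (Div5), 5.94% (Div8neg) and 11.9% (Div8pos). On the log2 scale the median per-cell changes against Div0 were 1.5 at Div5, 2.61 in Div8neg and 4.46 in Div8pos.

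The ERSE or ERSE-II was found in 11 of the 19 Div5-class genes with a promoter window, in 0 of 10 of the Div8neg class and in 1 of 3 of the Div8pos class, namely Ero1lb, against 0.212% of all genes. The split moved with the classes: of the 12 genes with either element, 6 were in the Div5 class, 4 in the Div8neg class and 2 in the Div8pos class without Div0 of host 196, and 6, 5 and 1 without Div5 of host 197. The classes were small, and these shares are a description with no test.

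**Figure D2:**
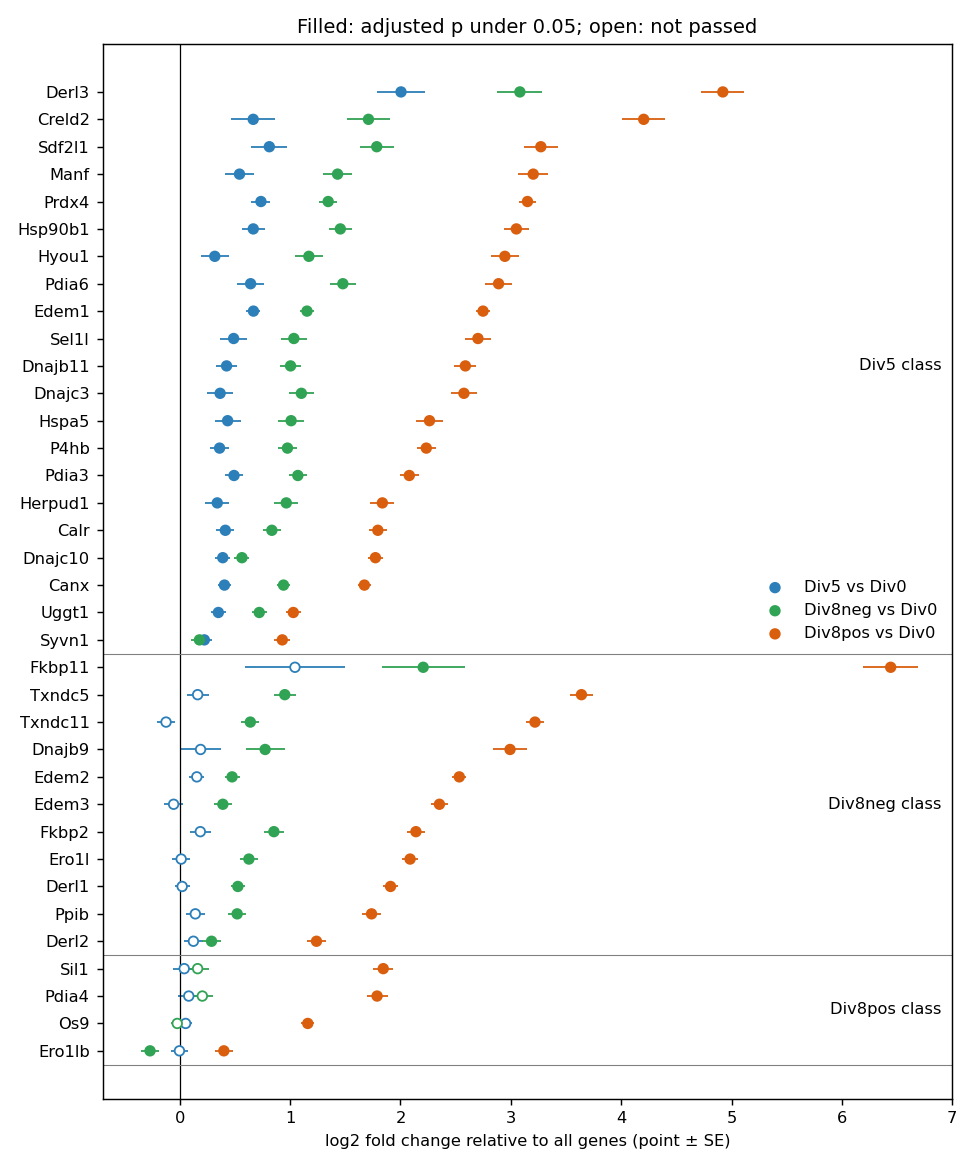
Log2 fold change against Div0 relative to all genes (x axis, point ± SE) of 36 genes (y axis) at Div5, in Div8neg and in Div8pos, grouped by class. Filled points passed an adjusted p of 0.05; in the Div8pos class the Div8pos points are filled and right of 0, and Ero1lb has a filled Div8neg point left of 0.

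HSP70 and HSP90 chaperones and their cofactors had the highest summed level of the 5 roles at Div5, in Div8neg and in Div8pos; at Div1 the disulfide isomerases and oxidases had the higher mean. Their 10 genes summed to 51.83 and 72.44 mRNAs per cell at Div0, 397 and 535.1 in Div8neg, and 1901 and 1947 in Div8pos. Of the 10, 8 rose at Div5 and 9 in Div8neg against Div0, beside 24.6% and 35.3% of all genes. In Div8pos against Div8neg 10 rose, beside 36.6% of all genes, and the median log2 change was 1.59.

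Hsp90b1, the HSP90 chaperone of the ER, stood at 15.8 and 22.7 mRNAs per cell at Div0, 23.9 and 37.3 at Div1, 26.1 and 35.5 at Div3, 67.1 and 70.7 at Div5, 144 and 191 in Div8neg, and 732 and 739 in Div8pos. It was the most abundant of the 37 in Div8pos. The groups from Div5 on did not overlap with those before them, which held for total mRNA per cell too. It rose by a log2 fold change of 1.59 ± 0.11 in Div8pos against Div8neg (edgeR adjusted p = 1.4e-09), and its class was Div5 in every fit. Hspa5, or BiP, the HSP70 chaperone that binds nascent chains, stood at 19.1 and 26.6 mRNAs per cell at Div0, 26.8 and 42.7 at Div1, 28.7 and 40.9 at Div3, 68 and 71.5 at Div5, 124 and 169 in Div8neg, and 485 and 528 in Div8pos. At Div0 it was above Hsp90b1 within each host and in Div8pos below it. Its relative rise in Div8pos against Div8neg was 1.25 ± 0.12, and its rise at Div5 against Div0, 0.43 ± 0.12, was lost without Div0 of host 196 (edgeR adjusted p = 0.0866) and without Div5 of host 197 (adjusted p = 0.097).

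Sdf2l1, a partner of the J-domain cochaperone Dnajb11, stood at 2.91 and 4.52 mRNAs per cell at Div0, 4.04 and 7.13 at Div1, 4.3 and 7.71 at Div3, 14.4 and 14.9 at Div5, 34.3 and 46.7 in Div8neg, and 168 and 162 in Div8pos. Its Div5 values lay above every earlier library, as did total mRNA per cell. Sdf2l1 rose by 0.81 ± 0.16 at Div5 against Div0 (edgeR adjusted p = 0.000702). Hyou1, a large relative of HSP70 that exchanges the nucleotide of BiP, stood at 3.57 and 4.82 mRNAs per cell at Div0, 4.72 and 7.68 at Div1, 4.86 and 6.97 at Div3, 11.6 and 12.1 at Div5, 24.5 and 36 in Div8neg, and 149 and 151 in Div8pos. It rose in Div8pos against Div8neg by 1.78 ± 0.12, while its Div5 rise against Div0, 0.32 ± 0.12 with an edgeR adjusted p of 0.0471, did not pass in DESeq2 (adjusted p = 0.145). With the host as a block Hspa5 and Hyou1 were lower at Div1 than at Div0 (edgeR adjusted p = 0.0312 and 0.0227).

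Dnajb9, a J-domain cochaperone of BiP, stood at 0.619 and 0.806 mRNAs per cell at Div0, 0.814 and 1.29 at Div1, 0.779 and 1.2 at Div3, 1.84 and 1.84 at Div5, 3.11 and 4.72 in Div8neg, and 24 and 28.4 in Div8pos. It had the largest relative rise of these 10 genes in Div8pos against Div8neg, 2.22 ± 0.14, and it was in the Div8neg class. Its rise in Div8neg against Div5, 0.585 with all libraries, was 0.502 without Div5 of host 196 and 0.325 without Div8neg of host 197. Dnajc10, a J-domain protein that also reduces disulfides, stood at 1.51 and 1.7 mRNAs per cell at Div0, 2.68 and 3.48 at Div1, 2.7 and 3.13 at Div3, 5.11 and 4.54 at Div5, 7.04 and 8.21 in Div8neg, and 26.1 and 25.2 in Div8pos. Its rise in Div8pos against Div8neg was the smallest of the 10, 1.21 ± 0.064. Its rise in Div8neg against Div5, 0.17 ± 0.066, did not pass in DESeq2 (adjusted p = 0.0921). In edgeR it was 0.119 without Div8neg of host 197, 0.178 without Div5 of host 196 and 0.169 without Div5 of host 197. With the host as a block Dnajb9 and Dnajc10 also rose at Div5 against Div3 (edgeR adjusted p = 0.0113 and 0.0331).

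Of the remaining cofactors, Manf, a small BiP-binding protein, reached a mean of 144 mRNAs per cell in Div8pos, Dnajb11 108 and Dnajc3, a J-domain protein, 50.2. These 3 were in the Div5 class, and the rise of Dnajc3 at Div5 against Div3 did not pass in DESeq2 (adjusted p = 0.0843). Sil1, the other nucleotide exchange factor of BiP, was in the Div8pos class. Its CPM (here and below scaled with TMM factors unless called plain) were 19.2 and 19 at Div0, 19.9 and 22.9 in Div8neg, and 67.9 and 69.3 in Div8pos. Sil1 did not pass at Div5 (0.04 ± 0.11) or in Div8neg (0.16 ± 0.10) against Div0, and rose in Div8pos against Div8neg by 1.68 ± 0.09 (edgeR adjusted p = 8.65e-11).

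**Figure D3:**
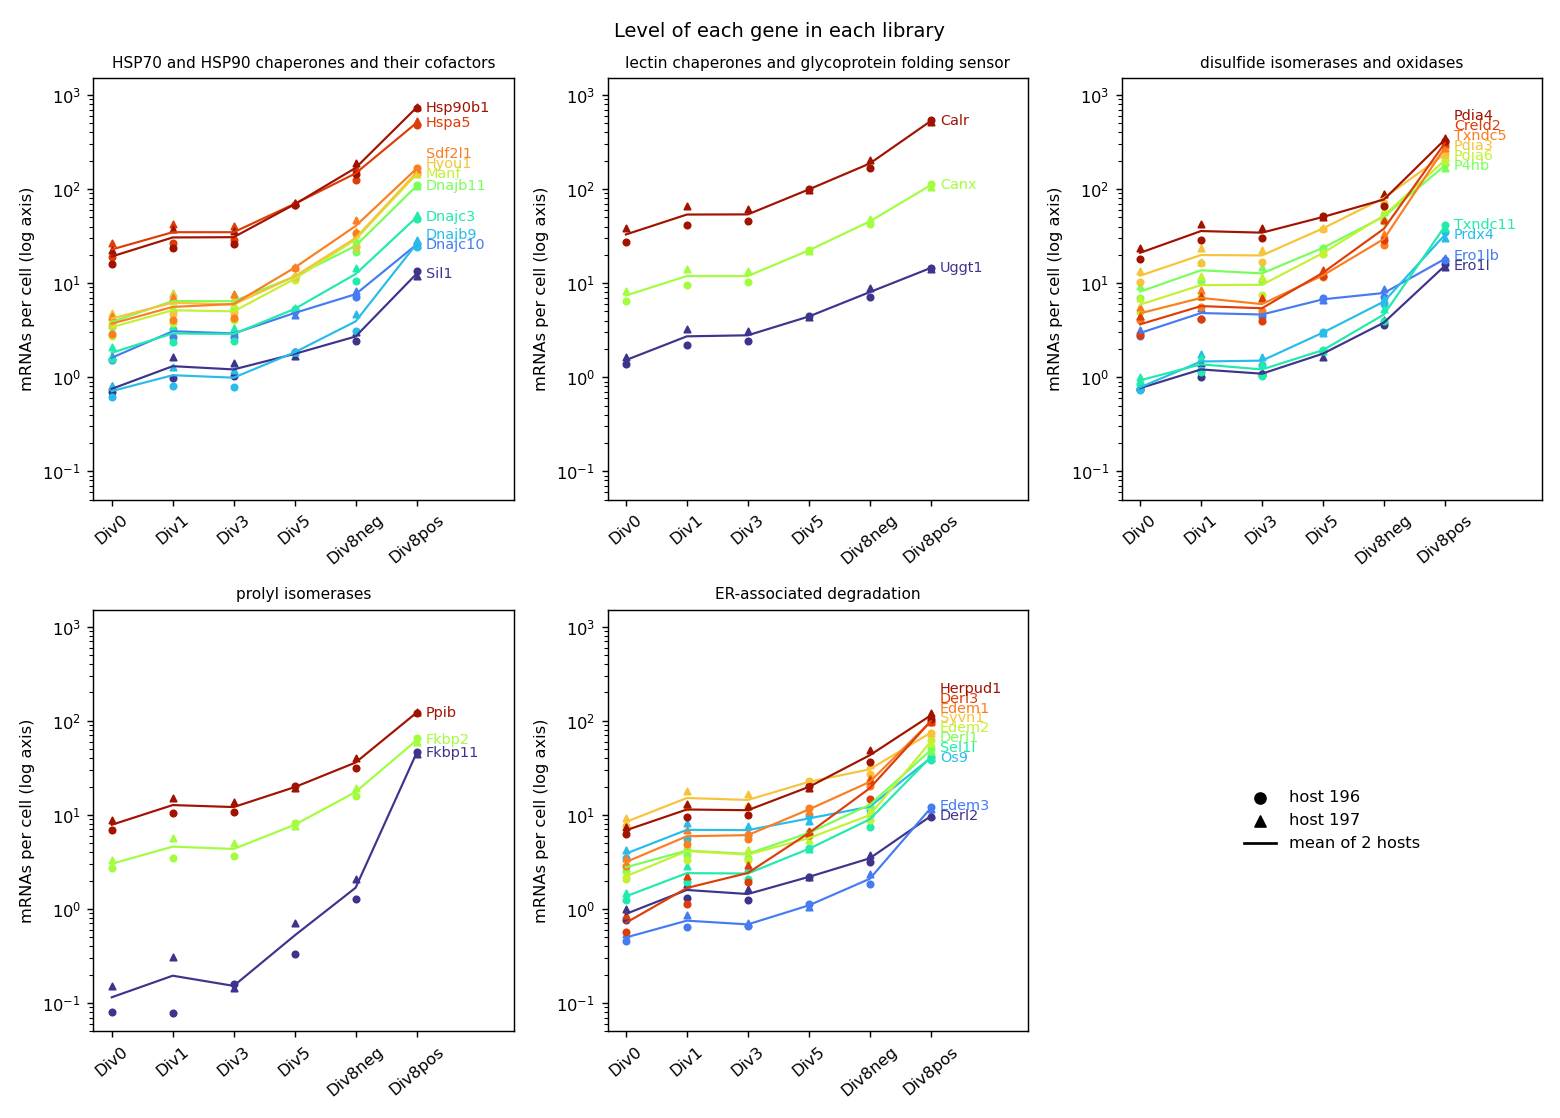
mRNAs per cell (log axis) of 36 genes in the 6 groups, 1 panel per role; points are libraries (circle, host 196; triangle, host 197) and lines join means of 2 hosts. Most lines step up at Div1, run level to Div3 and climb from Div5, and Fkbp11 climbs to 46.4 and 44.6 mRNAs per cell in Div8pos.

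The lectin chaperone cycle was the group with the smallest step to CD138. Calr, Canx and Uggt1 rose at Div5 and in Div8neg against Div0 and in Div8pos against Div8neg. Over all genes, 24.6%, 35.3% and 36.6% rose in these comparisons, in that order. The median log2 change of the lectin cycle genes in the last step was 0.73. Calr, the soluble lectin calreticulin, stood at 27.6 and 38.1 mRNAs per cell at Div0, 41.9 and 65.3 at Div1, 45.6 and 62 at Div3, 99.7 and 98.6 at Div5, 168 and 205 in Div8neg, and 540 and 518 in Div8pos. At Div0 it was the most abundant of the 37 in both hosts, in Div8pos it was above Hspa5 in host 196 and below it in host 197, and it rose by 0.96 ± 0.081 against Div8neg. Canx, the membrane-bound lectin calnexin, stood at 6.53 and 8.26 mRNAs per cell at Div0, 9.63 and 14.2 at Div1, 10.3 and 13.5 at Div3, 22.7 and 21.8 at Div5, 42.1 and 48.6 in Div8neg, and 114 and 106 in Div8pos. It rose by 0.94 ± 0.058 in Div8neg against Div0 and by 0.73 ± 0.057 in Div8pos against Div8neg. Uggt1, the sensor that puts a glucose back on misfolded glycoproteins so that they bind the lectins again, stood at 1.39 and 1.64 mRNAs per cell at Div0, 2.2 and 3.25 at Div1, 2.45 and 3.12 at Div3, 4.52 and 4.32 at Div5, 7.18 and 8.87 in Div8neg, and 14.6 and 14.3 in Div8pos. Its change in Div8pos against Div8neg, 0.31 ± 0.066 (edgeR adjusted p = 0.000562), was the smallest of the 36 genes, and in Div8neg it had covered 50.3% of its rise per cell.

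Disulfide isomerases and oxidases held both strong and weak risers. Their 11 genes summed to 52.3 and 69.43 mRNAs per cell at Div0, 302.8 and 400 in Div8neg, and 1654 and 1631 in Div8pos. Of the 10 tested, 5 rose at Div5 against Div0, beside 24.6% of all genes. In Div8neg against Div0, 8 rose and 1 fell, beside 35.3% and 35.7% of all genes. In Div8pos against Div8neg 10 rose, beside 36.6%.

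Pdia4, a disulfide isomerase with several thioredoxin domains, stood at 18.2 and 23.9 mRNAs per cell at Div0, 29.1 and 42.5 at Div1, 30.2 and 38.5 at Div3, 51.2 and 49.9 at Div5, 65.5 and 89.5 in Div8neg, and 328 and 345 in Div8pos. It was the most abundant of this role at Div0 and in Div8pos. In CPM it stood at 610 and 674 at Div0, 656 and 825 in Div8neg, and 2030 and 2400 in Div8pos. It rose by 1.58 ± 0.095 in Div8pos against Div8neg, and its Div8neg value against Div0, 0.20 ± 0.094, did not pass (edgeR adjusted p = 0.0616). It did pass with the host as a block (edgeR adjusted p = 0.00393), with no filter (adjusted p = 0.000616), in a fit of the 2 groups alone (adjusted p = 0.0434), and without any 1 of Div0 of host 197, Div8neg of host 196 or either Div8pos library, so its place in the Div8pos class depends on these choices. Its relatives Pdia3, which works with the lectins, Pdia6 and P4hb, the founding disulfide isomerase, rose at Div5 against Div0, with log2 changes of 0.49 ± 0.084, 0.64 ± 0.12 and 0.36 ± 0.085. Their Div8pos means were 235, 203 and 178 mRNAs per cell.

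Creld2, an ER-resident protein with isomerase activity, stood at 2.78 and 4.52 mRNAs per cell at Div0, 4.17 and 7.23 at Div1, 3.95 and 6.87 at Div3, 11.9 and 13.9 at Div5, 29 and 46.7 in Div8neg, and 308 and 308 in Div8pos. The Div8pos values were the same in both hosts at this precision, and it rose by 2.49 ± 0.18 against Div8neg. Its Div5 rise against Div0 did not pass in DESeq2 (adjusted p = 0.0533). Txndc5, a thioredoxin-domain isomerase, stood at 4.03 and 5.54 mRNAs per cell at Div0, 5.53 and 8.39 at Div1, 5.09 and 6.9 at Div3, 11.6 and 12.6 at Div5, 25.6 and 33.5 in Div8neg, and 281 and 272 in Div8pos. It rose by 2.69 ± 0.10 in Div8pos against Div8neg, the largest step of this role. Txndc11, a membrane thioredoxin-domain protein, stood at 0.842 and 1.01 mRNAs per cell at Div0, 1.14 and 1.6 at Div1, 1.04 and 1.38 at Div3, 1.95 and 1.92 at Div5, 3.99 and 5.29 in Div8neg, and 41.8 and 38.8 in Div8pos. Its step was 2.58 ± 0.078, and at Div5 against Div0 it did not pass (-0.12 ± 0.085). Both are in the Div8neg class; with the host as a block Txndc5 was lower at Div1 than at Div0 (edgeR adjusted p = 0.0129) and higher at Div5 than at Div0 (adjusted p = 0.0169).

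The 2 ERO1 oxidases feed oxidising power into the isomerases. Ero1lb stood at 2.75 and 3.14 mRNAs per cell at Div0, 4.16 and 5.46 at Div1, 4.33 and 4.95 at Div3, 6.91 and 6.55 at Div5, 7.09 and 8.63 in Div8neg, and 17.6 and 18.7 in Div8pos. In CPM it was 242 and 232 at Div0, 230 and 243 at Div5, 186 and 208 in Div8neg, and 285 and 341 in Div8pos, so the Div8neg libraries were the lowest. It fell in Div8neg against Div0 by 0.27 on the log2 scale (edgeR adjusted p = 0.00761), a call lost without Div0 of host 196 (adjusted p = 0.0512) or Div8neg of host 196 (adjusted p = 0.116). Its fall in Div8neg against Div5 was lost without Div8neg of host 196 (edgeR adjusted p = 0.15) or Div5 of host 197 (adjusted p = 0.0904). Per cell Ero1lb rose in Div8neg against Div0 (log2 1.38 ± 0.22), with the smallest estimate of the 36, and did not pass in Div8neg against Div5 (log2 0.21 ± 0.22). In Div8pos it rose by 0.67 ± 0.081 against Div8neg and by 0.40 ± 0.08 against Div0, the smallest rise of the 36 against Div0. Ero1l rose by 0.63 ± 0.08 in Div8neg against Div0 and by 1.46 ± 0.072 in Div8pos against Div8neg. Ero1l averaged 15.3 mRNAs per cell in Div8pos, against 0.765 at Div0, and Ero1lb averaged 18.1 in Div8pos, against 2.95 at Div0. Prdx4, a peroxiredoxin that uses the peroxide made by these oxidases, rose by 0.74 ± 0.086 at Div5 against Div0 and by 1.81 ± 0.064 in Div8pos against Div8neg.

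Pdia5, another isomerase, was nearly absent. It had 0 and 0 counts at Div0, 2 and 2 at Div1, 0 and 2 at Div3, 0 and 0 at Div5, 2 and 0 in Div8neg, and 10 and 9 in Div8pos. Its plain CPM, with no TMM factor, in Div8pos was 10.2 times that in Div8neg (95% interval of counting error 2.47 to 90.7), and at least 6.26-fold higher than Div0 at a floor of 3 counts over the group. The interval leaves out the spread between hosts, and the labels name no molecular tags, so PCR copies may be counted. Its highest level was 0.177 mRNAs per cell. Pdia5 did not pass the filter with all libraries. It entered the test with no filter and when any 1 library other than Div8pos of host 197 was left out. It was then in the Div8pos class. Where it passed the filter, it did so through its Div8pos counts alone, so that class is no support for a rise.

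The prolyl isomerases were all in the Div8neg class. Of the 3, 0 rose at Div5 and 3 rose in Div8neg against Div0, beside 24.6% and 35.3% of all genes. In Div8pos against Div8neg 3 rose, beside 36.6%. Fkbp11, a membrane-anchored FK506-binding protein, stood at 0.0801 and 0.151 mRNAs per cell at Div0, 0.0782 and 0.312 at Div1, 0.159 and 0.144 at Div3, 0.331 and 0.713 at Div5, 1.28 and 2.08 in Div8neg, and 46.4 and 44.6 in Div8pos. These are 16 and 22 counts at Div0, 81 and 111 in Div8neg and 1591 and 1564 in Div8pos, so the low groups rest on few reads. Its rise in Div8pos, 4.24 ± 0.19 against Div8neg (edgeR adjusted p = 8.71e-12) and 6.44 ± 0.25 against Div0, was the largest of the 36 in each. At Div5 against Div0 it did not pass (1.04 ± 0.45, edgeR adjusted p = 0.0693). It did pass with the host as a block (edgeR adjusted p = 0.0279), with no filter, and without any 1 of Div1 of host 196, Div1 of host 197 or Div5 of host 196, so it was in the Div5 class in 5 of 17 fits. Its rise in Div8neg against Div5 did not pass in DESeq2 (adjusted p = 0.0823). In edgeR that log2 change was 1.16 with all libraries, 0.644 without Div5 of host 196 and 0.847 without Div8neg of host 197.

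Ppib, or cyclophilin B, which also binds collagen and antibody chains in the ER, stood at 6.91 and 8.77 mRNAs per cell at Div0, 10.4 and 15 at Div1, 10.6 and 13.7 at Div3, 20.1 and 19.3 at Div5, 31.5 and 40.5 in Div8neg, and 120 and 123 in Div8pos. It was the most abundant of the 3 throughout and rose by 1.22 ± 0.08 in Div8pos against Div8neg. Fkbp2, a small luminal FK506-binding protein, stood at 2.7 and 3.33 mRNAs per cell at Div0, 3.44 and 5.73 at Div1, 3.67 and 5.02 at Div3, 8.11 and 7.55 at Div5, 15.8 and 19.1 in Div8neg, and 65.1 and 59 in Div8pos. It rose by 1.29 ± 0.076, close to Ppib. With the host as a block Fkbp11 and Ppib also rose at Div5 against Div3 (edgeR adjusted p = 0.0159 and 0.0423).

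The ERAD genes held members of every class. The 10 summed to 27.69 and 33.75 mRNAs per cell at Div0, 143.3 and 185.5 in Div8neg, and 589.3 and 604.7 in Div8pos. Of the 10, 5 rose at Div5 and 9 in Div8neg against Div0, beside 24.6% and 35.3% of all genes. In Div8pos against Div8neg 10 rose, beside 36.6%.

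Among the derlins, membrane proteins of the retrotranslocation channel, Derl3 stood at 0.563 and 0.86 mRNAs per cell at Div0, 1.12 and 2.22 at Div1, 1.93 and 2.9 at Div3, 6.05 and 6.75 at Div5, 14.6 and 23.7 in Div8neg, and 97.8 and 99.9 in Div8pos. No other of the 36 had so large a relative rise at Div5 against Div0, 2.00 ± 0.22 (edgeR adjusted p = 2.54e-06), and its libraries were ordered by group within each host. With the host as a block Derl3 rose at Div1 against Div0 (edgeR adjusted p = 0.0276) and at Div3 against Div1 (adjusted p = 0.00111). Derl1 and Derl2 were in the Div8neg class. Derl3 averaged 98.9 mRNAs per cell in Div8pos, against 0.712 at Div0, Derl1 averaged 48.5 in Div8pos, against 2.77 at Div0, and Derl2 averaged 9.69 in Div8pos, against 0.885 at Div0. Derl3 was thus the lowest of the derlins at Div0 and the highest in Div8pos. The rises in Div8pos against Div8neg were 1.84 ± 0.15 for Derl3, 1.38 ± 0.063 for Derl1 and 0.95 ± 0.081 for Derl2. Derl2 lost its Div8neg call without Div0 of host 196 (edgeR adjusted p = 0.0998) or Div8neg of host 197 (adjusted p = 0.0675).

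The EDEM proteins trim mannose from misfolded glycoproteins and so mark them for disposal. Edem1 stood at 2.83 and 3.47 mRNAs per cell at Div0, 4.95 and 6.88 at Div1, 5.54 and 6.64 at Div3, 11.7 and 11.1 at Div5, 20.4 and 24.4 in Div8neg, and 99.4 and 97.6 in Div8pos. It rose by 0.67 ± 0.063 at Div5 against Div0, and by 1.59 ± 0.062 in Div8pos against Div8neg. Edem2 stood at 2.06 and 2.37 mRNAs per cell at Div0, 3.31 and 4.93 at Div1, 3.32 and 4.24 at Div3, 5.93 and 5.39 at Div5, 8.9 and 10.9 in Div8neg, and 62.3 and 58 in Div8pos. Edem3 stood at 0.452 and 0.541 mRNAs per cell at Div0, 0.638 and 0.861 at Div1, 0.653 and 0.716 at Div3, 1.14 and 1.05 at Div5, 1.83 and 2.35 in Div8neg, and 12.2 and 11.5 in Div8pos. Neither Edem2 nor Edem3 passed at Div5 against Div0, and they rose by 2.06 ± 0.063 and 1.96 ± 0.075 in Div8pos against Div8neg; the difference from Edem1 was not tested. Edem2 also rose at Div5 against Div0 with the host as a block (edgeR adjusted p = 0.047), and Edem1 at Div1 against Div0 (adjusted p = 0.0484).

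The ubiquitin ligase complex comprises Syvn1, the ligase HRD1, with its adaptor Sel1l, the scaffold Herpud1 and the lectin Os9, which brings in glycoproteins. Herpud1 stood at 6.2 and 7.51 mRNAs per cell at Div0, 9.54 and 13.2 at Div1, 9.9 and 12.4 at Div3, 20.2 and 19.4 at Div5, 36.5 and 49.5 in Div8neg, and 105 and 122 in Div8pos. It was the most abundant ERAD mRNA in the mean of Div8pos, and it rose by 0.87 ± 0.10 against Div8neg. Syvn1 stood at 7.58 and 9.23 mRNAs per cell at Div0, 12.2 and 18 at Div1, 12.2 and 16.7 at Div3, 23 and 21.7 at Div5, 27.2 and 33.8 in Div8neg, and 74.9 and 74.3 in Div8pos. At Div0 it was above Herpud1 in each host, and its rise in Div8pos against Div8neg, 0.75 ± 0.072, was the smallest of the ERAD genes. Its calls at Div5 (0.22 ± 0.072) and in Div8neg (0.18 ± 0.072) against Div0 were both lost without Div0 of host 196 (edgeR adjusted p = 0.0949 and 0.143). The Div5 call was also lost without Div5 of host 197 (edgeR adjusted p = 0.136), and the Div8neg call without Div0 of host 197 (adjusted p = 0.0765) or Div8neg of host 197 (adjusted p = 0.433). Sel1l, by contrast, rose by 1.67 ± 0.11 in Div8pos against Div8neg; its rise at Div5 against Div3 did not pass in DESeq2 (adjusted p = 0.113). Os9 had 191 and 196 CPM at Div0, 184 and 197 CPM in Div8neg, and 413 and 453 CPM in Div8pos. Its Div8neg range held its Div0 values, and it rose in Div8pos by 1.18 ± 0.058 against Div8neg (edgeR adjusted p = 2.8e-11). With the host as a block Herpud1 rose at Div5 against Div3 (edgeR adjusted p = 0.00811) and Derl2 in Div8neg against Div5 (adjusted p = 0.0463).

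**Figure D4:**
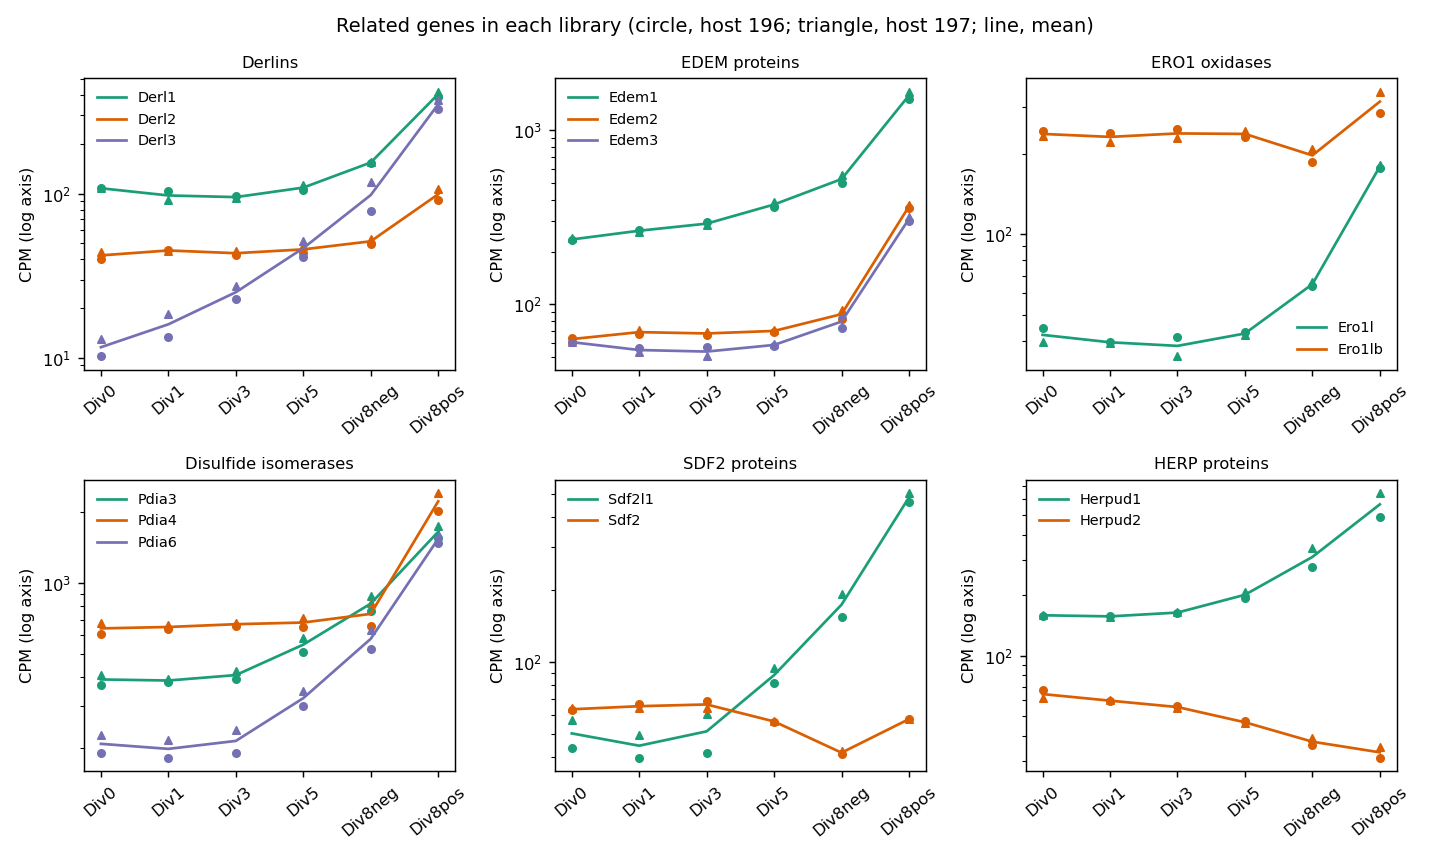
CPM (log axis) of related genes in the 6 groups; points are libraries (circle, host 196; triangle, host 197) and lines are means. Derl3 passes Derl2, Ero1lb dips in Div8neg to 186 and 208 CPM, and Herpud2 ends at 31 and 35.1 CPM in Div8pos.

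Sdf2 and Herpud2, the counterparts of Sdf2l1 and Herpud1, were chosen after their values were seen, so those values are a description with no test. Sdf2 had 62.8 and 64.1 CPM at Div0, 41.1 and 42.5 CPM in Div8neg, and 57.6 and 57.9 CPM in Div8pos. Herpud2 had 67.2 and 61.8 CPM at Div0, 36.1 and 38.8 CPM in Div8neg, and 31 and 35.1 CPM in Div8pos.

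A list of 73 other ER quality control genes gives the surroundings, with 68 of them tested. Both this list and the set were chosen with earlier results of these data known. In Div8pos against Div0, 44 of the 68 rose (64.7%) and 8 fell, where 40.2% of all genes rose and 42.2% fell, and the median log2 change was 0.96, against 2.31 for the 36. At Div5 against Div0, 17 of the 68 rose (25%), near the 24.6% of all genes, and 11 fell. In Div8neg against Div0, 37 rose (54.4%) and 16 fell, where 35.3% of all genes rose and 35.7% fell. The 3 with the largest rise in Div8pos against Div0 were the cargo receptor Lman1 (12.2-fold), the HSP70 relative Hspa13 (11.7-fold) and the J-domain gene Dnajc25 (7.45-fold), and the 2 with the largest fall were Nucb2, a calcium-binding protein (24.1-fold lower), and Cnpy3, a chaperone of Toll-like receptors (7.55-fold lower). The edgeR adjusted p of these 5 ran from 2.11e-15 to 1.92e-11.

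The regulators of the response were read beside the set. Xbp1 had 112 and 125 CPM at Div0, 243 and 281 CPM in Div8neg, and 1660 and 1590 CPM in Div8pos, and rose at Div5 against Div0 by 0.40 ± 0.093 (edgeR adjusted p = 0.00251). Ern1, which encodes the sensor IRE1, had 7.45 and 9.58 CPM at Div0, 11.4 and 13 CPM in Div8neg, and 79.2 and 85.1 CPM in Div8pos. Atf6 had 154 and 155 CPM at Div0, 242 and 253 CPM at Div5, 345 and 357 CPM in Div8neg, and 455 and 483 CPM in Div8pos. Mzb1, a plasma cell partner of Hsp90b1, had 1170 and 1140 CPM in Div8pos, against 310 and 340 CPM in Div8neg. Gene counts do not show Xbp1 splicing.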

How the data were processed

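RNA was sequenced from 12 sorted B cell libraries, 2 hosts in each of 6 groups, with a stranded mRNA kit and 11 cycles of PCR per the labels' protocols. The authors deposited read counts over the exons of mm9 genes per the file headers, and a signal, mRNAs per cell, scaled to ERCC spike-ins and exon length. The submitters' processing notes name mm9, Picard and R 3.2.2; which aligner and counter were used is not given in the sources used here. Of 21761 genes, 90 without a symbol (0.0498% to 0.0943% of counts) were left out, and 9645 did not pass the filter on low counts. Counts were tested with edgeR 4.0.16 (quasi-likelihood, TMM factors 0.9455 to 1.021) and mRNAs per cell with limma 3.58.1 on log2(value + 0.1), so fold changes of low genes are understated there. P-values were adjusted by Benjamini-Hochberg over 12026 genes in R 4.3.3. The main fit used all 12 libraries in 8 comparisons, with no block. DESeq2 1.42.0, RLE factors, no filter, another pseudocount, the host as a block, fits of 2 groups alone and leaving out each library were the alternatives. The edgeR and limma tests were first tried on simulated counts with some genes changed in Div8pos, and DESeq2 and the blocked fits were not. The simulated libraries were scaled to the same total of mRNAs per cell. Spread of that total between libraries was therefore not covered. The host numbers name the same animal, so they pair the libraries by design; deviations of same-numbered libraries correlated at 0.02 to 0.299 over 15 pairs of groups, above 0.1 in 9. The blocked value stands beside a result where it changed a call.

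The members and lists were chosen with earlier results of these data known. Values of every library are printed for, in each role, up to 3 genes with the highest mean mRNAs per cell in Div8pos, the 2 with the largest and the 1 with the smallest relative fold change of Div8pos against Div8neg, and any gene in no rising class; of the other ER quality control genes, the 3 with the largest and 2 with the smallest fold change of Div8pos against Div0 are named. Promoter sequences are from RefSeq, build GRCm38.p6, and no mm9 coordinate was converted. Counting intervals and floors cover counting error only. Bisulfite libraries were not analysed here.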

Additional observations from a re-analysis of the deposited data

How the results depend on the processing

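In Div8pos all 36 genes tested rose against Div8neg and against Div0 under every alternative run. The early steps were less stable. On the relative scale at Div1 against Div0, DESeq2 called 258 of all genes lower, against 470 in edgeR; with no filter 1 gene of the set was higher and 3 were lower. At Div3 against Div1, no filter gave 373 genes higher, 365 lower and 1 of the set higher, a fit of the 2 groups alone gave 108 and 70, and DESeq2 gave 117 lower; edgeR had 229 higher and 182 lower. No filter left 0 genes in no class. Per cell, a pseudocount of 1 gave 9 genes lower at Div1 against Div0, and 6 higher and 22 lower at Div3 against Div1, where edgeR scaled to spike-ins gave 42 higher. With no filter the per-cell counts were 22 of the set higher at Div1 against Div0, 0 genes higher and 0 lower at Div3 against Div1, and 224 higher, 4 lower and 0 of the set higher at Div5 against Div3, with 1 gene (Pdia5) in the Div8pos class and 0 in no class. The cause was not tested.

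Pairing by host, with the host as a block, gave 770 genes lower at Div1 against Div0, 2 of the set higher and 3 lower, and 385 genes higher, 370 lower and 1 of the set higher at Div3 against Div1. Per cell the block gave 45 higher and 72 lower at Div3 against Div1. It changed no other call on the set than those given with the genes, and 2 per cell, Dnajb9 at Div1 against Div0 (limma adjusted p = 0.0373) and Sil1 at Div5 against Div3 (adjusted p = 0.0388).

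As a share of gene counts, the summed ratios were 1.28 for Div5 to Div0, 1.88 for Div8neg to Div0, 2.53 for Div8pos to Div8neg and 4.75 for Div8pos to Div0, since this scale leaves out the growth of total mRNA. Without Hsp90b1 the ratio per cell of Div8neg to Div0 was 5.93.

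The relative log2 change of Ero1lb at Div5 against Div0 lay at 0 and changed sign: 0.0101 in DESeq2, 0.00997 with RLE factors, 0.00443 in a fit of the 2 groups alone, 0.0244 without Div0 of host 196, 0.0357 without Div5 of host 196, and 0.00288 and 0.00331 without Div8pos of host 196 and 197; leaving out single libraries it ran from -0.0476 to 0.0357. That of Os9 in Div8neg against Div0 was 0.0287 without Div8neg of host 196 and -0.0746 without Div8neg of host 197.

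Leaving out each library in turn gave these ranges. On the relative scale, genes higher and lower were 416 to 727 and 207 to 514 at Div1 against Div0, 79 to 224 and 58 to 181 at Div3 against Div1, and 643 to 1733 and 554 to 1526 at Div5 against Div3. Of the set, 7 to 22 were higher at Div5 against Div3, and 0 to 1 lower in Div8neg against Div5 and against Div0. The Div8neg class held 9 to 18 genes, the Div8pos class 3 to 7, and 0 to 1 had no class. Per cell, genes higher and lower were 830 to 10245 and 6 to 20 at Div1 against Div0, 6 to 42 and 5 to 89 at Div3 against Div1, 272 to 7221 and 7 to 66 at Div5 against Div3, and 2143 to 6132 and 188 to 521 in Div8neg against Div5; 58 to 105 were lower at Div5 against Div0. Of the set, 0 to 36 were higher at Div1 against Div0, 3 to 36 at Div5 against Div3 and 21 to 34 in Div8neg against Div5, with 0 to 1 in the Div8pos class and 0 to 1 in none. With 1 library left in a group, that library is assumed to vary like the others. Depth limits Pdia5 in all groups and Fkbp11 before Div8neg.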
